A study of Arabidopsis thaliana with 42 samples.

Results

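The step from 45 to 90 min at 44 °C in the upf mutant of Arabidopsis thaliana was followed in 6 of the 42 mRNA sequencing libraries of a heat time course, 3 libraries taken after 45 min (upf_45) and 3 taken after 90 min (upf_90). The libraries were chosen by their labels alone. The mutant, written upf3-1upf1-5 in the labels, carries mutant alleles of both UPF3 and UPF1 in the Col-0 background and came from another laboratory. Wild-type seedlings (WT) were Col-0, and further wild-type seedlings were heated with cycloheximide (CHX), an inhibitor of translation elongation given at 10 µg/L according to the labels, a unit that could not be checked, so that its effect on translation here is not known. All groups were whole seedlings grown for 10 days, moved to liquid medium and heated in light, each with 3 libraries made from multiple plants. The heated groups cover 15, 30, 45 and 90 min, and an unheated group at 0 min exists for upf and WT but not for CHX. No unheated seedlings were kept in medium for the same times, so time at 44 °C and time in medium cannot be told apart.

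UPF1 is an RNA helicase and UPF3 one of its partners in nonsense-mediated decay (NMD), the pathway by which cells degrade mRNAs whose translation stops too early, among them many products of alternative splicing. Severe heat makes plant cells induce chaperones through heat shock factors, and it slows the translation of most other mRNAs. Proteins destined for the cell wall, the apoplast or membranes are made by ribosomes at the endoplasmic reticulum, to which most are led by a hydrophobic stretch near their start, the core of a signal peptide or a first membrane span.

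Levels are normalized counts as the authors deposited them, averaged over the 2 sequencing lanes of a library and summed over the transcripts of a gene. Estimated depth, in units of 1000000 reads, ran from 20.4 to 75.9 over the series (median 44.5). In the 6 libraries compared it ran from 20.4 to 58.3, the lowest being replicate 2 at 90 min. Both highest values come from libraries in which low values skip no numbers, and are uncertain. UPF1 stood at 544 ± 64.7 normalized counts at 45 min and 500 ± 37.1 at 90 min in upf (SD, n = 3), against 1920 ± 149 and 1976 ± 157 in WT. UPF3 stood at 148 ± 15.4 and 137 ± 9.84 in upf, against 505 ± 47.0 and 532 ± 26.0 in WT. Both were lower in upf than in WT at each of these times, and neither was called over the step in upf (adjusted p = 0.931 and 0.894, limma). The labels name the mutant alleles and say nothing of transcript levels.

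Between 45 and 90 min the change in upf was mostly a loss. Of 20747 genes tested, 189 fell (0.911%) and 15 rose (0.0723%) by at least 2-fold at an adjusted p under 0.05 (limma on log2 of the value plus 1, Benjamini-Hochberg adjustment over all genes). By adjusted p alone 720 fell (3.47%) and 66 rose (0.318%), while the median gene moved by -0.01 on the log2 scale. The genes that fell had a median log2 change of -1.32, 8 of them fell by at least 4-fold, and in 185 of the 189 all 3 libraries at 90 min lay below all 3 at 45 min. The call uses the change in these same 6 libraries, so the separation adds no support, and no share over all genes is given. The same holds for each called gene below whose groups are said to lie apart. The genes that fell included 34 with a mean of at least 1000 normalized counts at 45 min, and 64 with a mean under 50. Leaving out 1 of the 6 libraries gave between 128 and 216 genes down, and 78 of the 189 were called in each such fit. The count was 109 with a pseudocount of 10, with 108 of the 189 among them, and 113 with only the 6 libraries in the fit, with 97 among them. Of the 15 genes that rose only 5 reached a mean of 100 at 90 min, and 2 were called in each such fit. The number up was 24 without replicate 1 at 45 min or replicate 2 at 90 min, 8 without replicate 3 at 45 min and 6 without replicate 1 at 90 min.

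**Figure D1:**
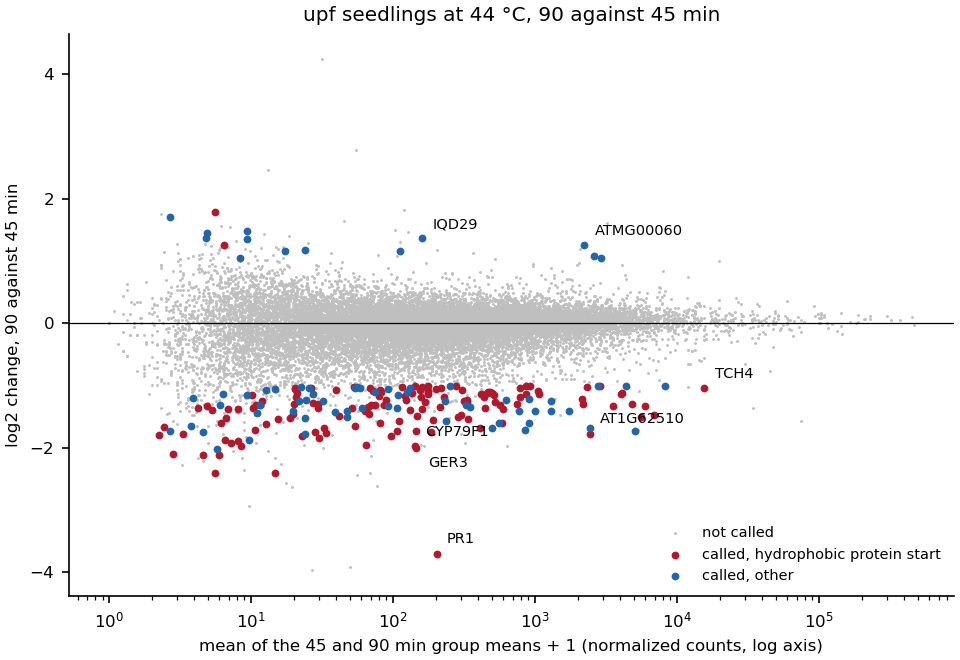
Log2 change from 45 to 90 min in upf (vertical axis) against the mean of the group means plus 1 (normalized counts, log axis) for the 20747 genes tested. Red and blue points are the 204 called genes with and without a hydrophobic protein start, most of which lie below 0, and grey points were not called.

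The genes that fell had a shared feature at the start of their coding sequences. A start was counted as hydrophobic where the mean Kyte-Doolittle hydropathy of some 12 consecutive residues among the first 35 was above 2.0. That held for 132 of the 186 genes that fell and have a protein in the reference (71.0%), for 2 of 12 that rose, and for 3517 of 20551 among all genes tested (17.1%). The first 105 bases of the coding sequences of 7 of the genes that fell let the feature be read directly, with the most hydrophobic window of 12 codons in capitals. Sequences and positions were read from the TAIR10.1 assembly of RefSeq, 5′ to 3′ on the coding strand.
GER3: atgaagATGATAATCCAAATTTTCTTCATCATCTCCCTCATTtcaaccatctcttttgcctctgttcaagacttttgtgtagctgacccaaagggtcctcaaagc
PR1: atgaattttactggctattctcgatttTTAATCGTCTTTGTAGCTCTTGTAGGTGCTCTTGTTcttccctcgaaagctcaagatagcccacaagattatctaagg
LTP6: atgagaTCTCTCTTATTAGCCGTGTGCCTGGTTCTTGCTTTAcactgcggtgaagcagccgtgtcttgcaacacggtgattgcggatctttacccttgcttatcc
AGP1: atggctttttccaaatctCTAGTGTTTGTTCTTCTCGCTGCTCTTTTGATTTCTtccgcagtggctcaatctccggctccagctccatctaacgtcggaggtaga
EXO: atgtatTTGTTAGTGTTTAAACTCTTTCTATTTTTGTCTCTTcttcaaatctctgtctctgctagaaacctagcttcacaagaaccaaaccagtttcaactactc
XTH19: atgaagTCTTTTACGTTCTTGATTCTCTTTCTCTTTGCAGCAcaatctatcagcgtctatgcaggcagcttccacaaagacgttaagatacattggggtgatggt
CYP79F1: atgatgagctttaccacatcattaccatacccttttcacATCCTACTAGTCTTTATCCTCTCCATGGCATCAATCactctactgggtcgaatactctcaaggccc
In each of these the window is rich in codons with T at the middle position, which encode leucine, isoleucine, valine, phenylalanine and methionine. For contrast, the same stretch of AT1G72910, which rose, and of NF-YA2, which fell, holds no window above the threshold and is printed without capitals.
AT1G72910: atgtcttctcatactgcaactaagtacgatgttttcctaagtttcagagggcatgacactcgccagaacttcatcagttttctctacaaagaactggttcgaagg
NF-YA2: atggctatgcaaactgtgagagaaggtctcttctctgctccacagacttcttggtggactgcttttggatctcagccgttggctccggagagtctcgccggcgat
The stretches lie at chr5:6975846-6975950 (minus strand) for GER3, chr2:6242325-6242429 (minus strand) for PR1 and chr3:2664680-2664784 (minus strand) for LTP6. Those of AGP1 and EXO lie at chr5:25722018-25722122 (plus strand) and chr4:5740378-5740482 (plus strand), and those of XTH19 and CYP79F1 at chr4:14829861-14829965 (minus strand) and chr1:5608862-5608966 (plus strand). AT1G72910 starts at chr1:27435634-27435738 (plus strand) and NF-YA2 at chr3:1678220-1678324 (minus strand). Each stretch is the first part of the gene's first coding exon.

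The feature went with the step across the whole table and not only among called genes. The 3517 genes with a hydrophobic start had a median log2 change of -0.27 and 77.2% of them lay below 0, while the 17034 other genes with a protein had a median of 0.02 and 46.5% lay below 0. By the call rule 3.75% of the former and 0.317% of the latter fell. Each library at 90 min showed it: against the mean of the 45 min libraries the median of the hydrophobic class was -0.32, -0.22 and -0.25 in the 3 libraries, and that of the other genes 0.02, 0.02 and 0.03. The class held 6.85, 6.95 and 7.17% of all normalized counts in the libraries at 45 min and 5.35, 5.99 and 5.90% in those at 90 min, so the 2 times did not overlap.

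The difference was present at every level and length. With genes split into 3 equal parts by mean level, from low to high, the hydrophobic class had medians of -0.30, -0.25 and -0.24, against 0.00, 0.01 and 0.03 for the other genes. Over 3 such parts by coding length the medians were -0.22, -0.30 and -0.27 against 0.05, 0.01 and 0.00. Moving the hydropathy threshold to 1.8 or 2.2 gave 74.7% and 67.2% among the genes that fell, against 19.1% and 15.2% of all genes. The members of these classes are genes of 1 set of libraries and are no replicates, so these shares and medians are descriptions.

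Without such a start, 54 of the genes that fell have a protein. Of these, 28 encode at least 2 separate hydrophobic stretches of 19 residues (15.1% of the 186, against 6.90% of all genes). Stretches were counted over the whole protein, and multi-span membrane proteins hold 2 or more. The remaining 26 had neither a hydrophobic start nor 2 such stretches (13.98% against 76.0%), and 0.167% of all such genes fell. Proteins with 1 stretch count among the 26, as those of PME1 and CYP79B2 do. The 26 included the nuclear transcription factor subunits NF-YA2, NF-YA9 and NF-YA10. NF-YA2 stood at 38, 35 and 37.5 normalized counts at 45 min and 14, 17 and 17.5 at 90 min (log2 change -1.15, SE 0.28, adjusted p = 0.0104). The 26 genes also included peroxidase AT3G32980, which stood at 1233, 1376.5 and 1284.5 and then at 441, 471.5 and 292.5 (-1.72, SE 0.24, adjusted p = 1.82e-05). In both genes every library at 90 min was below every library at 45 min. The most hydrophobic window of AT3G32980 reached 1.67, under the threshold of 2.0, and the gene counts among the class III peroxidases below.

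**Figure D2:**
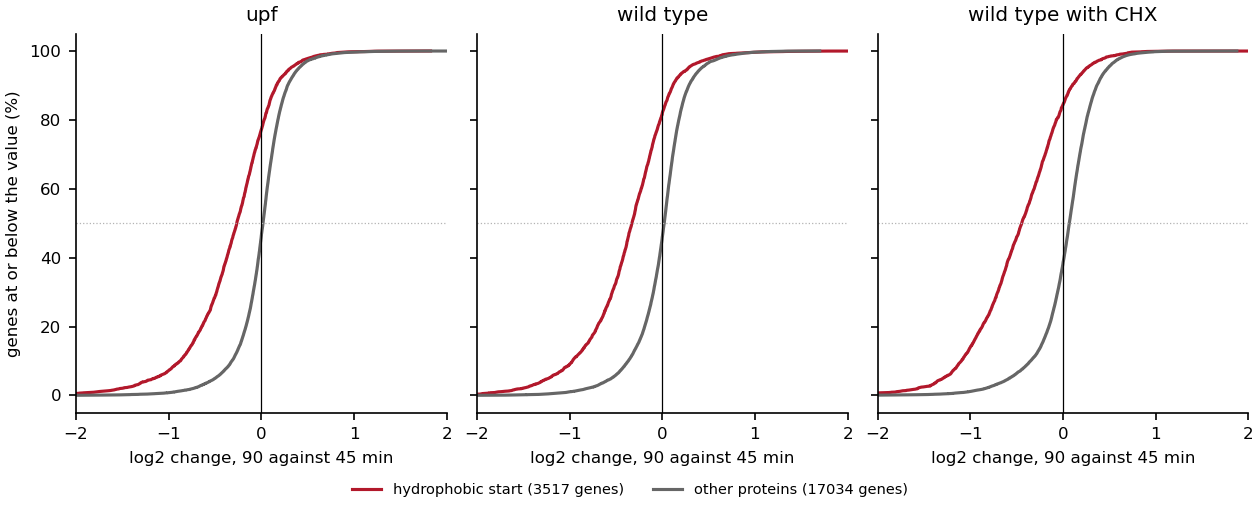
Cumulative share of genes (vertical axis, percent) at or below each log2 change from 45 to 90 min (horizontal axis), for genes with a hydrophobic protein start (red, 3517) and other genes with a protein (grey, 17034), in upf, WT and WT with CHX. The red curve lies to the left of the grey one in each panel, with medians of -0.27, -0.33 and -0.45 against 0.02, 0.02 and 0.07.

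Several families of wall and cell surface proteins, picked after the values were seen, held genes that fell. The family counts stand against 0.911% of all genes and 3.75% of genes with a hydrophobic start called down, and no family was tested as a group. Xyloglucan endotransglucosylase/hydrolases, which cut and rejoin the xyloglucan tethers between cellulose fibres, had 6 of 26 tested members called down and none up, with a family median of -0.55. TCH4, the member long known as touch-inducible, stood at 20691, 20123.5 and 22297 normalized counts at 45 min and at 9855.5, 11021.5 and 9660.5 at 90 min (log2 change -1.05, SE 0.22, adjusted p = 0.00248). XTH18 went from 4452.5, 4823.5 and 6025.5 to 1907, 2293.5 and 1880.5 (-1.33, SE 0.21, adjusted p = 8.46e-05), and its neighbour XTH19 from 496.5, 458 and 551 to 159, 186 and 172.5 (-1.53, SE 0.25, adjusted p = 0.000122). In all of these the groups were well apart. Not all wall genes moved: in a list of 16 expansin, tubulin and cellulose synthase genes none was called, the median was 0.09, and the 7 members with a hydrophobic start also had a median of 0.09. The expansin genes EXPA1 and EXPA5, whose products loosen walls, had log2 changes of -0.42 and 0.40, and the cellulose synthase genes CESA1 and CESA3 of -0.11 and -0.05.

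The EXORDIUM family of secreted proteins, linked to growth under brassinosteroids, had 4 of 7 tested members called down and a median of -1.03. EXO itself stood at 8166.5, 7601.5 and 9125 normalized counts at 45 min and at 2690, 3440.5 and 2681 at 90 min (-1.50, SE 0.20, adjusted p = 6.61e-06). EXL2 went from 3009, 3018.5 and 2988.5 to 1316.5, 1260 and 1275 (-1.23, SE 0.18, adjusted p = 3.46e-05), with almost no spread within either time. Arabinogalactan proteins, heavily glycosylated proteins of the cell surface, had 4 of 44 members called down and a family median of -0.23. AGP1 stood at 7141.5, 5710 and 7740 and then at 2654.5, 3111 and 2579 (-1.30, SE 0.16, adjusted p = 3.59e-06), again without overlap.

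Lipid transfer proteins, small secreted proteins that bind lipids for the cuticle and for defence, gave the largest number of calls among the families counted, 15 down of 73 tested with a family median of -0.71. AT1G62510 stood at 3933.5, 3397 and 3891.5 normalized counts at 45 min and at 827.5, 1474.5 and 1049 at 90 min (-1.78, SE 0.24, adjusted p = 6.48e-06). LTP6 went from 118.5, 195 and 137 to 57.5, 31.5 and 38.5 (-1.81, SE 0.25, adjusted p = 1.51e-05). The unnamed members AT3G53980 (-1.74) and AT1G48750 (-1.73) were also among the 12 largest decreases of genes with a mean of at least 100. Neither time's libraries overlapped in these genes, though AT1G48750 varied from 162 to 328.5 within the 45 min group, and its call did not hold without replicate 2 at 45 min or replicate 3 at 90 min (adjusted p = 0.154 and 0.174).

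Germin-like proteins, secreted manganese proteins of the apoplast, had 3 of 10 members called down, and all 10 had values below 0. GER3 stood at 242.5, 196.5 and 257 normalized counts at 45 min and at 51, 52.5 and 66.5 at 90 min (-2.02, SE 0.20, adjusted p = 1.71e-07), the largest decrease after PR1 among genes with a mean of at least 100. GER1 went from 236, 345.5 and 270.5 to 88.5, 93.5 and 101.5 (-1.56, SE 0.20, adjusted p = 3.59e-06). Class III peroxidases, which use hydrogen peroxide to crosslink or loosen walls, had 9 of 57 members called down (median -0.56), pectin methylesterases and their inhibitors 5 of 50 (median -0.54), and GDSL lipases 5 of 62 (median -0.47). FLR1, a leucine-rich repeat protein, went from 279.5, 234.5 and 340.5 to 65.5, 111.5 and 77 (-1.76, SE 0.24, adjusted p = 9.43e-06), and AT5G19230, which encodes a precursor of a GPI-anchored glycoprotein, from 86.5, 89 and 125.5 to 26.5, 14.5 and 38.5 (-1.96, SE 0.29, adjusted p = 3.85e-05).

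Of 25 aquaporins tested, channels for water in the vacuolar and plasma membranes, 4 were called down (against 0.911% of all genes). By adjusted p alone 10 fell, against 3.47% of all genes. Values lay below 0 for 21 of the 25, with a median of -0.44. TIP2 of the vacuolar membrane stood at 8309.5, 9138.5 and 8196 normalized counts at 45 min and at 3698, 3339.5 and 3185.5 at 90 min (-1.33, SE 0.17, adjusted p = 3.59e-06). PIP2A of the plasma membrane went from 10163, 12389.5 and 10480 to 5809.5, 5607 and 4891.5 (-1.02, SE 0.16, adjusted p = 9.54e-05). GAMMA-TIP (-1.13) and PIP1A (-1.01) were the other two, and none of the 4 overlapped between times.

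Other families differed among themselves. Cytosolic ribosomal proteins had no member called of 270 and a median of 0.12, WRKY transcription factors none of 57 (median 0.02), and pentatricopeptide repeat proteins of the organelles 1 down and 1 up of 239 (median -0.02). NF-YA subunits of the nucleus had 3 of 10 called down and a median of -0.51, a share like that of the germin-like proteins.

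Some of the genes that fell lie next to each other. In 13 pairs both genes fell and lay at most 2 places apart in the order of annotated genes, involving 23 of the 189 genes. No share of such pairs over all genes stands beside this count, and clustering was not tested. AT5G19230, AT5G19240 and AT5G19250, which encode GPI-anchored glycoproteins, form a run on chromosome 5 with log2 changes of -1.96, -1.11 and -1.28. OCT3, CYP79F2 and CYP79F1 form another on chromosome 1 (-1.03, -1.85 and -1.98). Most of the other pairs are members of the same family, such as XTH18 and XTH19 on chromosome 4, whose reads may in part be shared.

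In the 300 bases upstream of each annotated gene start, searched on both strands, a full heat shock element (3 alternating units of GAA and TTC, set 2 bases apart) was found for 1 of 186 genes that fell (0.538%), 0 of 12 that rose and 0.521% of 20553 genes tested. The G-box CACGTG, bound by many bHLH and bZIP factors, was found for 6.99% of the genes that fell, 1 of 12 that rose and 8.26% of all. These shares describe letters in a window and not sites.

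**Figure D3:**
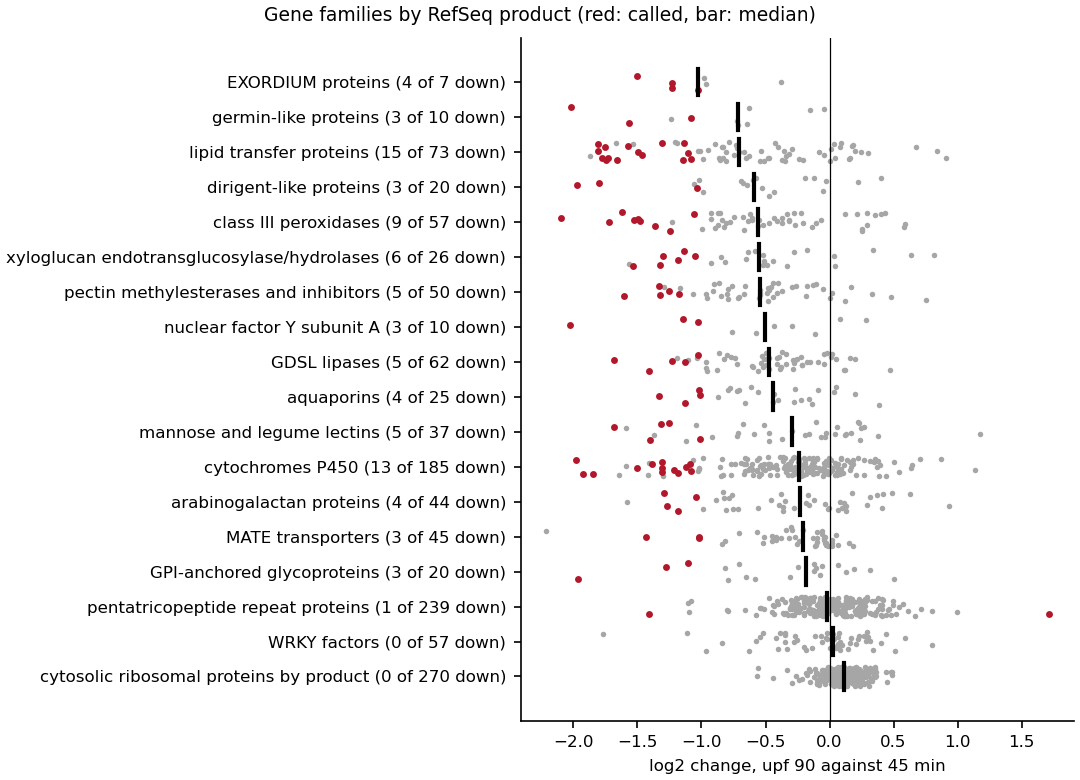
Log2 change from 45 to 90 min in upf (horizontal axis) for every tested member of 18 gene families, with called members in red and the family median as a bar. Medians run from -1.03 in EXORDIUM proteins to 0.12 in cytosolic ribosomal proteins.

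Enzymes and transporters of glucosinolates, the sulfur-containing defence compounds of the cabbage family, were also among the genes that fell. Of 20 tested genes of this pathway, a list drawn up after the values were seen, 7 were called down (against 0.911% of all genes) and none up, with a median of -0.48. By adjusted p alone 8 fell, against 3.47% of all genes. CYP79F1, which starts the side of the pathway that uses chain-elongated methionine, stood at 153.5, 363 and 173 normalized counts at 45 min and at 65.5, 51.5 and 44.5 at 90 min (-1.98, SE 0.31, adjusted p = 9.19e-05). CYP79B2, which makes the first intermediate from tryptophan, went from 1214, 1350 and 1242 to 594.5, 604 and 453.5 (-1.21, SE 0.20, adjusted p = 0.000125), and CYP83B1, the next enzyme on that branch, from 543, 761.5 and 569 to 310, 330.5 and 223 (-1.12, SE 0.18, adjusted p = 0.000128). The libraries of CYP79B2 and of CYP83B1 thus lay apart between times.

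Transporter genes of the same pathway were among the calls. GTR1, a glucosinolate importer of the plasma membrane, stood at 1094, 1453.5 and 1548 normalized counts at 45 min and at 428, 508.5 and 403 at 90 min (-1.60, SE 0.19, adjusted p = 1.62e-06). GTR2 passed the adjusted p but not the fold threshold (-0.98), and BAT5, a carrier of the plastid envelope, fell by 1.11. The soluble enzymes of the core pathway showed no call: SUR1, the C-S lyase, had a log2 change of 0.03, the glucosyltransferase UGT74B1 -0.01, and the sulfotransferases SOT16, SOT17 and SOT18 -0.28, 0.00 and -0.32. Reads of close paralogs such as CYP79F1 and CYP79F2 rest on the authors' assignment and are uncertain to that extent.

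PR1, a secreted antimicrobial protein and a marker of salicylic acid signalling, had the largest decrease among genes with a mean of at least 100. It stood at 385, 521 and 222.5 normalized counts at 45 min and at 43.5, 18 and 23 at 90 min (log2 change -3.71, SE 1.00, adjusted p = 0.0269). The groups did not overlap, but the call did not hold with a pseudocount of 0.5 or without replicate 1 or 2 at 45 min or replicate 2 or 3 at 90 min (adjusted p from 0.0733 to 0.127). In unheated upf seedlings PR1 ran at 2223 ± 1916 (SD, n = 3), and in WT at 2.50 ± 1.50, with WT means of 1.50 at 45 min and 2.83 at 90 min. It also varied widely earlier in the heat in upf, at 260.5, 2713 and 900 at 15 min and 3529.5, 917.5 and 646 at 30 min. Replicate 2 of WT at 30 min stood at 78. PR1 was the only one of 25 tested genes of salicylic acid signalling and immunity to be called. PR2 had a log2 change of -2.01 and FRK1 of -1.93 without passing (adjusted p = 0.288 and 0.0884), while EDS1, PAD4 and NPR1 were at 0.19, 0.01 and 0.02.

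The chaperones that dominate the heat response changed little in median from 45 min, as far as these libraries can tell. With 0.911% of all genes called down and 0.0723% up, lists of this length can hold no call at that rate. None of 17 small heat shock protein genes, 19 genes of the HSP70, HSP90 and HSP100 chaperones, 15 of co-chaperones and chaperonins or 24 of heat shock factors and co-activators was called, and the medians were 0.08, 0.01, -0.09 and -0.04. HSP101, the disaggregase needed for survival of severe heat, stood at 480683, 447094 and 481637.5 normalized counts at 45 min and at 415986.5, 524480 and 438727.5 at 90 min (-0.04, SE 0.21, adjusted p = 0.984). The libraries of the 2 times overlapped.

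Genes of the unfolded protein response, which serve folding in the endoplasmic reticulum, had no call at 2-fold. By adjusted p alone 6 of 24 fell, against 3.47% of all genes, and 23 of the 24 had values below 0 (median -0.34). PDIL2-1, a protein disulfide isomerase, went from a mean of 1146 normalized counts to 588 (-0.96), and the calreticulin gene CRT3 from 909 to 612 (-0.56, adjusted p = 0.00489). Of the 24 genes 18 have a hydrophobic start, and 5 of the 6 that fell are among them. The median was -0.38 with such a start and -0.10 without. Among all genes with such a start 77.2% lay below 0, with a median of -0.27. The luminal chaperone genes BIP1 and BIP2 did not pass (-0.18 and -0.11), nor did the regulators BZIP28 and BZIP60 (-0.12 and -0.04).

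Genes of NMD, its known targets and SR splicing proteins changed little in median over the step. Over all genes 0.911% were called down and 0.0723% up, so lists this short can hold no call at that rate. None of 13 NMD and exon junction complex genes, 12 known NMD targets or 20 genes of SR splicing proteins was called, with medians of -0.04, -0.05 and 0.05. In mRNA decay CAF1A, a deadenylase subunit, rose by adjusted p alone, from 1274, 990 and 1011 to 2579.5, 1445 and 1933.5 (0.83, SE 0.24, adjusted p = 0.0372).

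Among 33 gene lists in all only 4 held a member called at 2-fold, apart from the glucosinolate list added later. Rapid AP2/ERF, zinc finger and touch genes had the highest median, 0.37, with 23 of 26 above 0, but the sole increase called was CBF3 at 2, 1 and 2 against 8.5, 4.5 and 5 normalized counts, a level too low to weigh, and the sole decrease was TCH4. The lists on ribosome assembly, photosynthesis, the proteasome, auxin response, jasmonate, abscisic acid, the clock and expansins, tubulins and cellulose synthases held no called member, though TUB8 of the last rose by adjusted p alone (0.61).

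Markers of single tissues and cell types were also followed. The summed level of 9 root markers ran from 5105 to 5416 normalized counts at 45 min and from 3062.5 to 3643 at 90 min, most of it from PYK10, a root beta-glucosidase of the endoplasmic reticulum (log2 change -0.74, adjusted p = 0.0157). The other 8 root markers did not pass, from IRT1 at -1.58 and EXPA7 at -0.995 through WOX5 at -0.23 to SHR at 0.19 and COBL9 at 0.23. Of the 9, 6 were below 0, with a median of -0.22. The 5 with a hydrophobic start had a median of -0.738 and the others of 0.035. All genes with such a start had a median of -0.27. The 6 tested markers of guard cells, phloem, epidermis and meristem did not pass either (median 0.07), and 23 nuclear photosynthesis genes had a median of 0.03. Seed maturation genes varied widely within each time, their sum running from 1914 to 7623 at 45 min and from 1090 to 2935.5 at 90 min, with none called. In whole seedlings fewer cells of a type and less RNA per cell cannot be told apart, and the part of tissue makeup in the genes that fell was not tested.

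Increases were few and mostly small in level. IQD29, a calmodulin-binding protein of the IQ-domain family, stood at 90.5, 110 and 68.5 normalized counts at 45 min and at 239.5, 185.5 and 265 at 90 min (log2 change 1.36, SE 0.17, adjusted p = 3.19e-06). It had fallen earlier, from 255 ± 19.9 before heat to 96.2 ± 15.8 at 30 min, so the increase brought it back near its unheated level. AT1G72910, which encodes a protein with a Toll-Interleukin-Resistance domain, went from 63.5, 73 and 59.5 to 203, 86 and 177 (1.15, SE 0.21, adjusted p = 0.000504), with replicate 2 at 90 min close to the 45 min range. Without replicate 1 at 90 min its change was under 2-fold (adjusted p = 0.0133), and it was not called in lane 1 alone or with only the 6 libraries in the fit.

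The other 3 increases with a mean of at least 100 were genes of the mitochondrial genome. ATMG00060 stood at 1465.5, 1214.5 and 1227 normalized counts at 45 min and at 4103, 2649 and 2687.5 at 90 min (1.25, SE 0.25, adjusted p = 0.0021). ATMG01120 (1.08, SE 0.29, adjusted p = 0.0242) and ATMG01360 (1.05, SE 0.23, adjusted p = 0.00478) were likewise apart, though the call of ATMG01120 did not hold without any 1 of the 6 libraries (adjusted p from 0.0528 to 0.108). ATMG01360 was under 2-fold in lane 2 alone and without replicate 2 at 45 min or replicate 1 at 90 min (adjusted p = 0.0375 and 0.0434). Before heat the means of the 3 genes in upf had been 20.5, 26.5 and 60.2 normalized counts. A large copy of the mitochondrial genome lies in nuclear chromosome 2 of this species, so the origin of these reads is uncertain.

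Calls among the genes of the organelle genomes stand beside 0.0723% of all genes called up and 0.911% called down. Mitochondrion-encoded genes summed to between 69078 and 77793 normalized counts at 45 min and between 96168 and 127901 at 90 min, with a median log2 change of 0.14 over 107 tested genes, 39 of them below 0, and 3 called up. Plastid-encoded genes summed to between 250517 and 304471.5 at 45 min and between 131071 and 269737 at 90 min, so the sums overlapped. The median was -0.86 over 86 genes, 80 of them below 0 and 3 called down. ATCG00790 stood at 8350.5, 8144 and 6625.5 at 45 min and at 3492.5, 1669 and 2124.5 at 90 min (-1.73, SE 0.36, adjusted p = 0.00248). ATCG00780 fell by 1.68 (adjusted p = 0.0206) and ATCG00120 by 1.61 (adjusted p = 0.00866), the latter with overlapping libraries because replicate 1 at 90 min (451) was above replicate 1 at 45 min (442). Neither call held without replicate 2 or 3 at 90 min or replicate 3 at 45 min (adjusted p from 0.0552 to 0.152), and that of ATCG00780 also not without replicate 1 or 2 at 45 min (adjusted p = 0.0537 and 0.0747).

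The genes that fell after 45 min had come there by different routes. At 30 min against 0 min in upf, libraries that the step does not use, 57 of the 189 were called down (30.2%, against 13.7% of all genes tested), 30 were called up (15.9%, against 10.7%) and 102 were called neither way. The number called down early was 94 with libraries scaled to equal totals, which moved the median of all genes at 30 min by -0.55, and 21 with a pseudocount of 10 or with only the compared libraries in the fit. Without replicate 2 at 45 min it was 37. Those called down early had median levels of 153, 120, 67, 36.8 and 14 normalized counts at 0, 15, 30, 45 and 90 min, a loss at each time. Those called up early went from 284 before heat to 2526 at 15 min, then to 1569, 1069 and 439, and 21 of the 30 had their highest mean at 15 min. Of the 189 genes, 154 fell at each of the steps from 15 to 30, 45 and 90 min, and 169 ended below their unheated mean, against 10 of the 30 that had been induced. The last of these falls is the rule that chose the 189, and it lowers the end point. No share over all genes stands beside these counts, so they are descriptions.

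GER3 and TCH4 show these courses in single genes. GER3 ran at 1398 ± 72.3 normalized counts before heat, 838 ± 160 at 15 min and 442 ± 35 at 30 min (SD, n = 3 each), then at 232 ± 31.6 and 56.7 ± 8.55, a fall at every time. TCH4 rose from 531 ± 228 to 25678 ± 2215 at 15 min, held 25536 ± 5590 at 30 min and 21037 ± 1127 at 45 min, and was down to 10179 ± 736 at 90 min, still well above its unheated level.

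**Figure D4:**
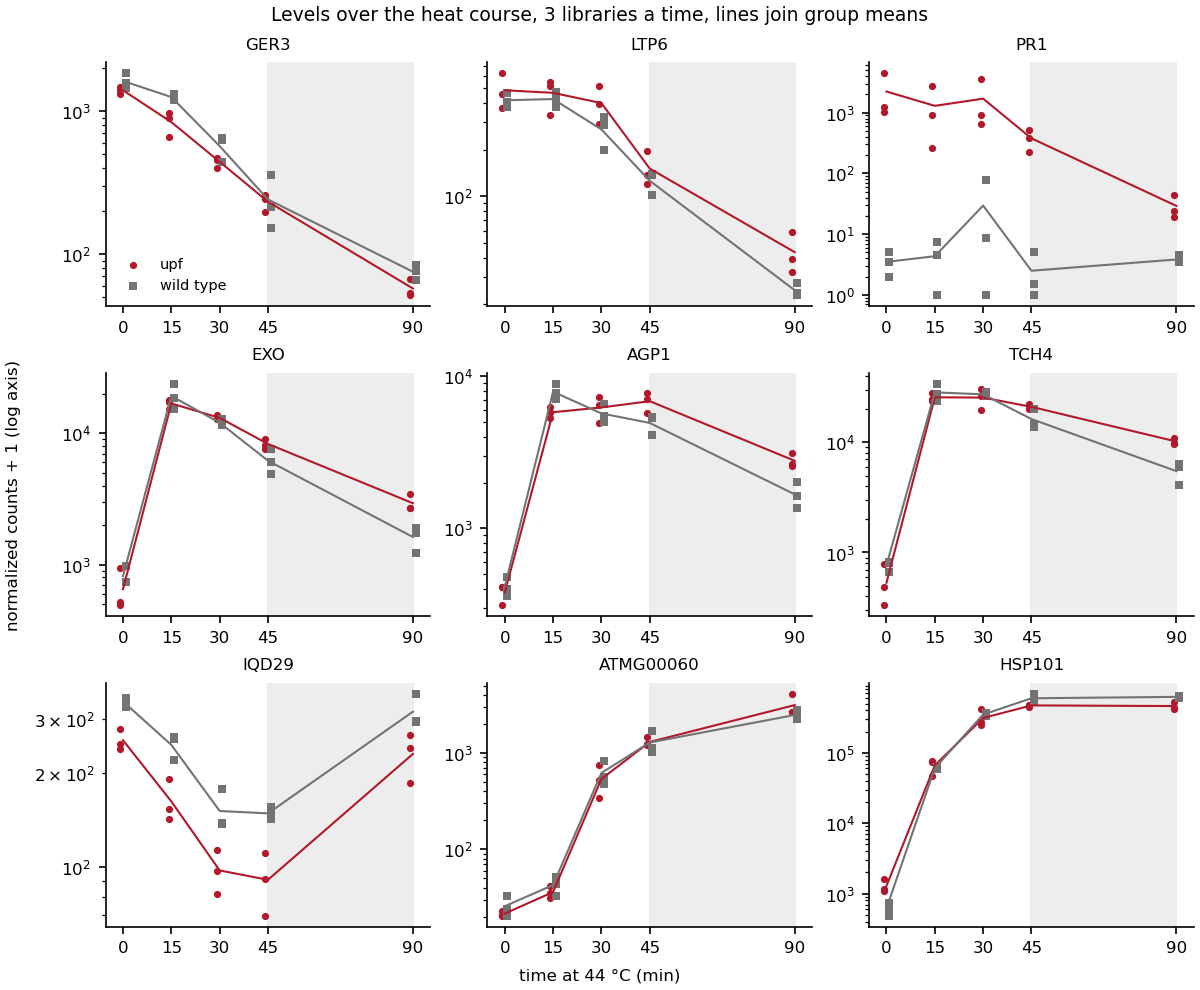
Normalized counts plus 1 (log axis) over 0, 15, 30, 45 and 90 min at 44 °C for 9 genes, 3 libraries a time as points with lines through group means, in upf (red) and WT (grey). The shaded step shows GER3, LTP6, PR1, EXO, AGP1 and TCH4 falling in upf, IQD29 and ATMG00060 rising, and HSP101 level. PR1 is the gene of the 9 with WT near 0, apart from replicate 2 at 30 min (78).

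The share of hydrophobic starts among genes called down was not the same at each step of the course. In upf 965 genes fell from 0 to 15 min (4.65% of those tested), and 17.8% of them had such a start, near the 17.1% of all genes. From 15 to 30 min 722 genes fell (3.48%), 48.6% of them with such a start, and from 30 to 45 min 91 genes (0.439%), 76.9% of them. In the step to 90 min the share was 71.0%. The median log2 change of the 3517 genes with such a start was -0.11, -0.33, -0.23 and -0.27 over the 4 steps, against -0.04, -0.02, 0.01 and 0.02 for the other genes. Successive steps share a group, so these are levels side by side and no independent repeats.

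The same step in WT, which shares no library with that in upf, asked whether the loss depended on the genotype. In WT 332 genes fell (1.6%) and 12 rose (0.0578%). Of the 189 genes that fell in upf, 127 were also called down in WT (67.2% of the upf calls and 38.3% of the WT calls), 184 had the same sign, and their median log2 change in WT was -1.23. Among the 318 WT calls with a protein 69.5% had a hydrophobic start. Of the 15 genes that rose 1 was called in WT, IQD29, with a log2 change of 1.08 there.

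The difference of the steps between genotypes was tested for each gene, and 0 were higher (0%) and 0 lower (0%) in upf at the call rule (limma, lowest adjusted p = 0.262). An unadjusted p under 0.05 was reached by 562 genes (2.71%), and without replicate 3 of upf at 90 min 1 gene was lower. Calls in 1 genotype alone are therefore not shown to be differences. Of the genes that fell in upf, 5 had the opposite sign in WT, among them PR1 (0.96 in WT, SE 1.00) and AT5G63350, and the difference for PR1 was -4.67 (SE 1.42, adjusted p = 1.00). GER3 differed by -0.42 (SE 0.29) and LTP6 by 0.54 (SE 0.36) between the steps, both within about 2 standard errors.

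**Figure D5:**
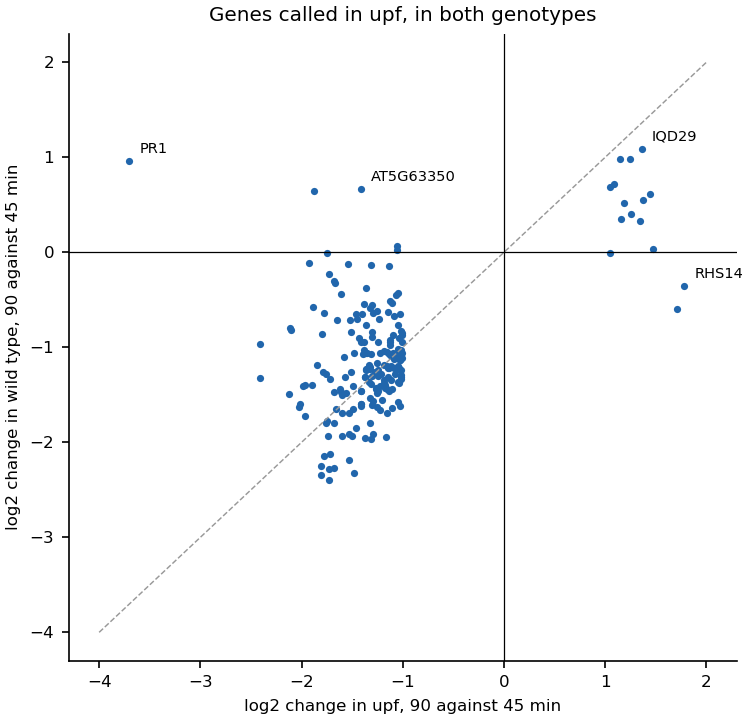
Log2 change from 45 to 90 min in upf (horizontal axis) and in WT (vertical axis) for the 204 genes called in upf, with equal change as a dashed line. Most of the 189 genes that fell lie below 0 in both, and PR1 is the one farthest to the left with a value above 0 in WT.

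With CHX, in wild-type seedlings that share no library with upf, 510 genes fell over the same interval (2.46%) and 9 rose (0.0434%). Of the 189 upf calls 76 were also called down there (40.2% of the upf calls and 14.9% of the CHX calls), with a median log2 change of -0.96 for all 189. Hydrophobic starts made up 76.2% of the 509 CHX calls with a protein, and the 3517 genes had a median of -0.45. GER3 fell by 0.92 with CHX against 2.02 in upf, and the difference of -1.10 did not pass (SE 0.29, adjusted p = 0.0684). EXO changed by -1.02 with CHX and AGP1 by -0.97. Over all genes the step in upf was higher than that with CHX for 38 genes (0.183%) and lower for 2 (0.00964%), counts that fell to 0 when only the libraries compared were fitted.

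At the level of transcripts few changes were called by both fits. Of 22958 transcripts of genes with at least 2 tested transcripts, 23 rose (0.1%) and 24 fell (0.105%) relative to the other transcripts of their gene (limma diffSplice, adjusted p under 0.05 and at least 2-fold), in 37 genes. With each transcript's own spread in place of the gene's pooled one, 1 rose and 4 fell, and the 2 that both fits called were the transcripts of ACD5, a ceramide kinase gene. Its second transcript stood at 24, 25.5 and 24.5 normalized counts at 45 min and at 0, 6 and 3 at 90 min, while its first went from 359.5, 401 and 357 to 400, 483 and 374.5 (relative log2 change of the second -3.24, adjusted p = 0.00218). That second transcript stops 431 bases upstream of its last exon junction, a feature of many NMD targets, but of the 23 transcripts that rose 2 had a stop at least 50 bases upstream of the last junction, of the 24 that fell 4, and of all tested transcripts 10.4%.

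The largest relative changes each way among transcripts with a mean of at least 50 involved libraries listed at 0 and were not called with own spreads. AT3G09440.1, of an HSP70 gene, was at 66.5, 137.5 and 20.5 at 45 min and at 0, 1 and 0 at 90 min (relative log2 change -5.77, adjusted p = 0.0181 by diffSplice and 0.339 with its own spread). HA3 transcript 4, of a plasma membrane proton pump gene, was at 21, 0 and 0 and then at 25, 120 and 17 (4.83, adjusted p = 0.00476 and 0.135). An exact 0 in an estimated transcript level can be a failed estimate, so no fold is read from either.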

How the data were processed

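Stranded mRNA was sequenced paired-end on a NovaSeq with 150 cycles and 2 lanes a library, per the labels. The authors deposited normalized counts per transcript and lane, rounded to whole numbers, treated here as a score and not as counts: in 35 of 84 columns low values skip numbers, as counts divided by a size factor would, and in the others reads cannot be recovered, so no count test was run. kallisto, sleuth and the TAIR10 build are named in the submitters' processing notes, while no source used here gives their versions, their roles or the scaling. Reads per library were estimated from a step between values, fitted to how often each low whole number occurs. Where low values skip no numbers the fit is uncertain. The 2 lanes of replicate 2 with CHX at 45 min gave steps of 0.496 and 0.938.

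Lanes were averaged and transcripts summed per locus. limma 3.58.1 in R 4.3.3 was fitted to log2(value + 1), so fold changes of low genes are understated, with 14 group means over 42 libraries, a variance trend and Benjamini-Hochberg adjustment within each comparison. Genes needed at least 10 in at least 3 libraries, and a call needed an adjusted p under 0.05 and at least 2-fold. Usage was tested with diffSplice on transcripts under the same filter. The fits were checked on simulated data. P-values measure the spread between libraries of separate plant samples. Proteins, products and positions came from the TAIR10.1 annotation of RefSeq, in which 27445 of 27655 genes matched.

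Named genes are UPF1 and UPF3, the up to 12 largest changes each way among called genes with separate libraries and a mean of at least 100, up to 4 called members of each list (else the 2 most abundant), the 6 largest step differences and the 5 largest usage changes each way. Members and lists were chosen with earlier results of these data known. The families, the glucosinolate list, the hydrophobic class, and the members of these that are named beyond the rule, were chosen after values were seen. Alternatives covered pseudocounts, filters, scaling, lanes, libraries fitted, omission of each library and a replicate block. The usage fit with own spreads and the splits by level and length were added after the data were seen.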

Additional observations from a re-analysis of the deposited data

Results flagged for a closer look

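The step from 45 to 90 min differed between upf and CHX-treated wild-type seedlings by the test of the difference itself (limma, adjusted p under 0.05 and at least 2-fold), a comparison added after the values were seen. The log2 change was higher in upf for 38 genes (0.183% of those tested) and lower for 2 (0.00964%), and 30 of the 38 had a hydrophobic protein start (78.9%, against 76.2% of the genes that fell with CHX and 17.1% of all genes). Genotype and CHX both differ between these arms and cannot be told apart.

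The 6 largest positive differences with a mean of at least 100 came from genes that were called down with CHX and were not called in upf. AT1G05310, a pectin lyase-like gene, differed by 2.10 (SE 0.47, adjusted p = 0.0244), with 128, 90 and 134 normalized counts at 45 min and 120.5, 164.5 and 168 at 90 min in upf, against means of 52.8 ± 45.2 and 12.2 ± 2.57 with CHX. AT1G52190, of the major facilitator superfamily, differed by 1.67 (adjusted p = 0.00603) and AT1G09750, an aspartyl protease gene, by 1.49 (adjusted p = 0.0206). GALS2, a glycosyltransferase gene, differed by 1.46 (adjusted p = 0.000985). PIN3, an auxin efflux carrier, differed by 1.41 (adjusted p = 0.00147), going from 1456 ± 184 to 606 ± 50.5 with CHX and from 457, 373 and 449.5 to 394.5, 426 and 624 in upf. XYL1, an alpha-xylosidase that trims xyloglucan, differed by 1.35 (adjusted p = 0.000439).

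The 2 genes that fell more in upf were AT4G34960, a cyclophilin-like gene, at -1.38 (adjusted p = 0.0182), and GTR1 at -1.35 (adjusted p = 0.00832). GTR1 had means of 4257 ± 1483 and 3435 ± 546 with CHX, above all 6 upf libraries. With only the libraries compared in the fit 0 genes were higher and 0 lower.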

How the results depend on the processing

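The share of hydrophobic starts among the genes that fell ran from 66.3% (no filter) to 76.4% (pseudocount of 10) over the settings run, and none of the results computed under these settings changed its direction. Counts moved more. The number of genes up was 9 with a pseudocount of 10, 9 with a filter of 50, 27 without a filter, 5 with only the 6 libraries compared and 66 without a fold threshold, and 6 to 24 with 1 library left out. The number down was 109 with a pseudocount of 10, 113 with the libraries compared only, and 720 without a fold threshold, with 128 to 216 on leaving out 1 library. The difference from WT had 1 gene lower without replicate 3 of upf at 90 min, so the omissions gave 0 to 1. Against CHX, total scaling gave 22 higher, the libraries compared only gave 0 higher and 0 lower, no fold threshold gave 110 higher, lane 1 alone gave 4 lower, and omissions gave 22 to 46 higher and 1 to 7 lower. Usage calls up were 10 with a filter of 50, 1 with own spreads and 36 in lane 2, and 9 to 60 on omission. Usage calls down were 43 without a filter, 15 with total scaling, 4 with own spreads, 45 in lane 1 and 43 in lane 2, and 11 to 88 on omission. Genes that fell after a call down at 30 min numbered 21 with a pseudocount of 10, 94 with total scaling (which moved the median of all genes at 30 min by -0.55) and 21 with the libraries compared only, and 37 to 59 on omission. Genes that rose after such a call numbered 1 with a pseudocount of 10, 2 with a filter of 50 and 1 with the libraries compared only, and 2 to 11 on omission.

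Replicate numbers did not pair the samples: same-numbered libraries had deviations correlated at -0.09, -0.17 and 0.15, and replicate 1 at 90 min correlated best with replicate 2 at 45 min (0.38). The replicate block was run on only the libraries compared, a restriction whose own counts are given above. It gave 5 genes up, 62 down, 0 against CHX in either direction, 8 fallers and 1 riser called down at 30 min. Among the named genes IQD29, LTP6, FLR1, CYP79F1, AT3G53980 and AT4G34960 lost their call under the block and under no other setting run. Taking each single gene or list with each setting as 1 case, 1516 cases stayed the same, 48 lost a call (in 15 genes), 1 gained one and 1 moved.

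Depth limits the low genes: 64 of the 189 had a mean under 50 at 45 min, and the scaling of the deposited values is unknown.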
